A study of Mus musculus with 6 samples.

Results

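The genes examined here encode the precursors of 10 neuropeptides of the spinal cord: Npy, Sst, Tac1, Cck, Penk, Pdyn, Calca, Nts, Gal and Grp. They were chosen by name, and all 10 were found among the 39174 genes listed in each library. RNA sequencing had been done on primary mouse motoneuron cultures of strain CD-1, with 3 libraries of genotype Nmd+/+ and 3 of genotype Nmd-/-. Nmd-/- animals are homozygous for the neuromuscular degeneration allele of Ighmbp2, which encodes a helicase. The allele is constitutive, so every cell type in a culture carries it, and no treatment is named for any library. Neither the animals' age nor the origin of the replicates (distinct animals, distinct cultures or neither) is given in the sources used here. A p-value below thus reflects the spread of these libraries, and part of that spread may be technical. Both genotypes carry replicate numbers 1 to 3.

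Neuropeptides are made as larger precursor proteins, which are cut at pairs of basic residues by prohormone convertases, trimmed by carboxypeptidase E and often amidated before they are released from dense-core vesicles. They act on G protein-coupled receptors and modulate transmission by glutamate, GABA and glycine. In the spinal cord they are best known from the dorsal horn, where different peptides mark different sets of interneurons. Dynorphin, neuropeptide Y and galanin are found mainly in inhibitory cells. Substance P, cholecystokinin, neurotensin and gastrin-releasing peptide are found mainly in excitatory ones, and somatostatin largely so. CGRP, made from Calca, is also a peptide of sensory neurons and of motoneurons.

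The values are FPKM, fragments scaled to transcript length and to the mapped fragments of the library, which allow levels of different genes to be compared. The widths of the deposited intervals corresponded to between 15381970 and 23072408 fragments per library. Among the marker genes, Chat, which makes acetylcholine, did not exceed 0.0692 FPKM, and the motoneuron factor gene Mnx1 did not exceed 0.0247 FPKM, so these defining markers of the labelled cell type were near 0. Of 19 motoneuron markers in the files 11 reached a mean of 1 FPKM. That held for 15 of 18 markers of inhibitory and 19 of 22 markers of excitatory spinal neurons, and for 3 of 14 markers of sensory neurons. The 11 motoneuron markers did not include Chat, Mnx1, Slc5a7, Isl2, Lhx3 or Lhx4. Among them Aldh1a2 reached that mean through the libraries numbered 2 (3.16 and 3.19 FPKM) and did not exceed 0.618 FPKM elsewhere. Scn10a, a sodium channel gene of nociceptors, did not exceed 0.0843 FPKM. The mutated gene, Ighmbp2, measured 1.44, 1.303 and 1.09 FPKM in Nmd+/+ replicates 1 to 3 and 0.876, 0.788 and 0.598 FPKM in the Nmd-/- ones. Libraries numbered 2 stood apart in both genotypes by fibroblast and meningeal transcripts, whose summed levels were 563 (Nmd+/+) and 675 (Nmd-/-) FPKM, against between 202 and 376 FPKM in the other 4 libraries.

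The most abundant of the 10 was Npy (ENSMUSG00000029819, chromosome 6, 49822710 to 49829507, GRCm38, plus strand), which encodes neuropeptide Y, a peptide of inhibitory dorsal horn neurons. It measured 198, 83.2 and 157 FPKM in Nmd+/+ replicates 1, 2 and 3, and 188, 72.6 and 147 FPKM in Nmd-/- replicates 1, 2 and 3. The libraries numbered 2 were the lowest of each genotype, and the genotypes overlapped. Npy lay between the 90.4 and 97.0 percentile of the 14611 genes that reached a mean of 1 FPKM. Sst (ENSMUSG00000004366, chromosome 16, 23889581 to 23890844, minus strand) encodes somatostatin, an inhibitory peptide. Its values were 153, 50.5 and 128 FPKM in Nmd+/+ and 136, 53.9 and 91.7 FPKM in Nmd-/-, again with number 2 lowest in both genotypes. Tac1 (ENSMUSG00000061762, chromosome 6, 7554879 to 7565834, plus strand) encodes the precursor of substance P and neurokinin A. It measured 118, 77.0 and 143 FPKM in Nmd+/+ and 112, 65.1 and 85.8 FPKM in Nmd-/-. Cck (ENSMUSG00000032532, chromosome 9, 121489825 to 121495689, minus strand) encodes cholecystokinin, a peptide shared by gut and brain. Its values were 35.4, 21.6 and 42.3 FPKM in Nmd+/+ and 32.8, 22.4 and 37.6 FPKM in Nmd-/-. In Cck and Tac1, too, each genotype was lowest in its library numbered 2.

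Sequence before RefSeq's transcript starts is shown because Npy, Sst, Tac1 and Cck were the highest of the 10 and were lowest together in the libraries numbered 2. RefSeq promoter windows on GRCm38.p6 matched 8 of the 10 genes, with 9 windows in all, since Pdyn has 2. The 150 bases before each start were searched on both strands for TGACG, the core of the cyclic AMP response element (CRE), and for the full palindrome TGACGTCA, which overlaps the core on each strand. The core was in 4 of the 9 windows, those of Sst, Tac1, Cck and Calca, and in 13.3% of all 32851 windows of that length. The palindrome was in 1 of the 9, that of Sst, and in 1.36% of all windows. Stretches of 30 bases around each match follow, 5′ to 3′ on the gene's strand, with the motif in capitals.
Sst (chr16:23890874-23890903, minus strand): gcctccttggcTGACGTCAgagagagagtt
Tac1 (chr6:7555005-7555034, plus strand): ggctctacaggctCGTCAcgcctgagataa
Cck (chr9:121495725-121495754, minus strand): tcctgctggactgCGTCAgcactgggtaaa
Calca (chr7:114636406-114636435, minus strand): ggaagcacagaggTGACGcaatctgtctgg

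The matches began 48, 43, 47 and 65 bases before the RefSeq start in Sst, Tac1, Cck and Calca. The RefSeq start of Tac1 lies downstream of the gene start in the files, so its stretch falls inside the span over which Tac1 was measured. The Sst stretch lies outside the span in the files but inside the GENCODE span of Sst, which reaches to 23890958. In Tac1 and Cck the core reads on the opposite strand, as CGTCA. Neither Npy, the highest of the 10, nor Pdyn, described below, had the core in these windows. Their 150 bases are printed whole in lower case for comparison, for Pdyn those of the window farther upstream.
Npy (chr6:49822560-49822709, plus strand): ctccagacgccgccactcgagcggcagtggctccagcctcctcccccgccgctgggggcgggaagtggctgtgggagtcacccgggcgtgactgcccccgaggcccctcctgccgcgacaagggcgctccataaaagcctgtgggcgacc
Pdyn (chr2:129699939-129700088, minus strand): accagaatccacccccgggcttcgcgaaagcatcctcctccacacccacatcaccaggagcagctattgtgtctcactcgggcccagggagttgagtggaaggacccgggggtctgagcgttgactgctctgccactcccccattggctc

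A match or its lack describes these letters in this window only and says nothing of binding.

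The opioid precursors were expressed at lower levels. Penk (ENSMUSG00000045573, chromosome 4, 4133531 to 4138819, minus strand) encodes proenkephalin, the source of Met- and Leu-enkephalin. It measured 10.7, 6.20 and 11.8 FPKM in Nmd+/+ and 9.49, 7.23 and 6.31 FPKM in Nmd-/-. The lowest library was number 2 in Nmd+/+ and number 3 in Nmd-/-. A transcript on the other strand, A830012C17Rik, overlaps Penk and reached at most 0.0871 FPKM. Pdyn (ENSMUSG00000027400, chromosome 2, 129686565 to 129699844, minus strand) encodes prodynorphin, whose peptides act mainly on the kappa opioid receptor. Its values were 5.86, 5.16 and 4.93 FPKM in Nmd+/+ and 4.39, 3.96 and 2.74 FPKM in Nmd-/-. Every Nmd-/- library lay below every Nmd+/+ library, and the libraries numbered 2 were not the lowest of either genotype.

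The remaining 4 genes were the least abundant. Calca (ENSMUSG00000030669, chromosome 7, 114631480 to 114636357, minus strand) gives calcitonin and CGRP by alternative splicing, which gene-level FPKM cannot separate. It measured 3.39, 5.89 and 5.08 FPKM in Nmd+/+ and 4.15, 3.92 and 4.28 FPKM in Nmd-/-. Number 2 was the highest library of Nmd+/+ and the lowest of Nmd-/-. Calcb, the neighbouring CGRP gene, did not exceed 0.0928 FPKM. Nts (ENSMUSG00000019890, chromosome 10, 102481760 to 102490418, minus strand) encodes neurotensin and neuromedin N, and measured 3.59, 2.88 and 3.57 FPKM in Nmd+/+ and 2.83, 1.51 and 3.02 FPKM in Nmd-/-. Number 2 was the lowest library of each genotype, and lowest of all in Nmd-/-. Gal (ENSMUSG00000024907, chromosome 19, 3409919 to 3414472, minus strand) encodes galanin, which acts mostly through inhibitory receptors. Its values were 3.15, 1.94 and 2.78 FPKM in Nmd+/+ and 3.28, 1.58 and 2.36 FPKM in Nmd-/-, with number 2 lowest in both. Grp (ENSMUSG00000024517) encodes gastrin-releasing peptide, known for its part in spinal itch circuits. It measured 1.40, 1.62 and 1.35 FPKM in Nmd+/+ and 2.004, 1.73 and 1.67 FPKM in Nmd-/-, so that every Nmd-/- library lay above every Nmd+/+ library. An antisense transcript annotated over Grp was listed in 0 of the 6 libraries, and its reads may not have been told apart.

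**Figure D1:**
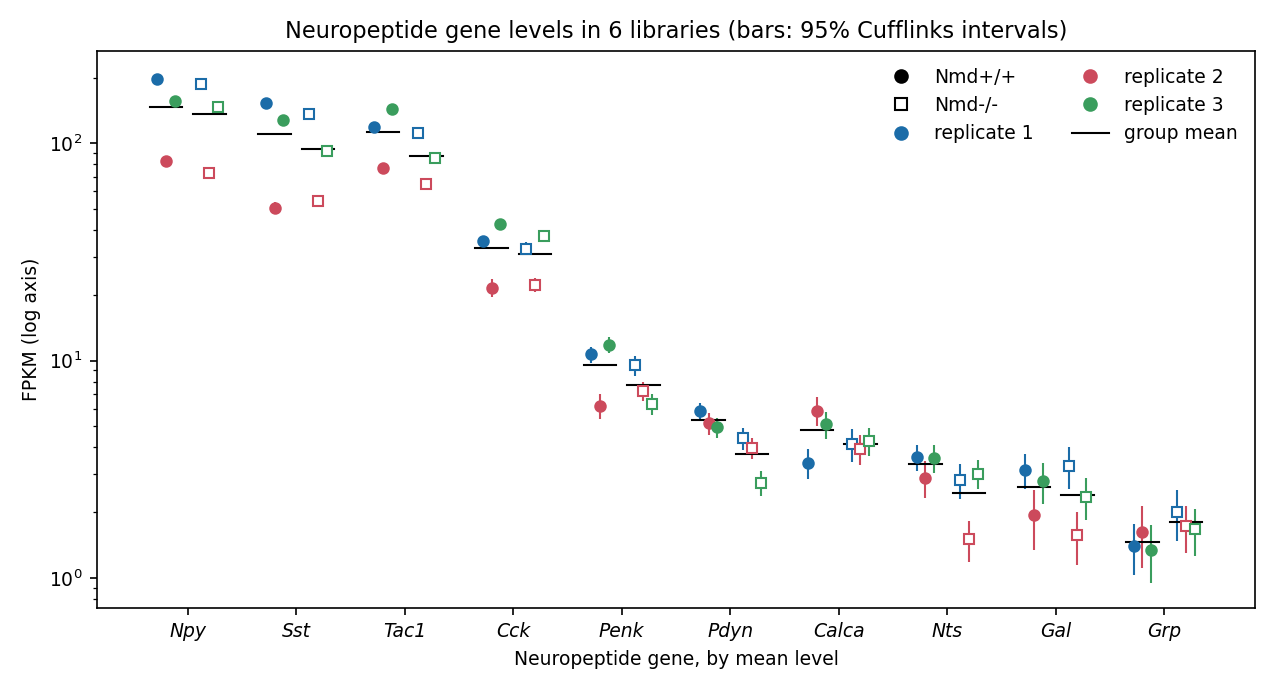
FPKM of the 10 genes on a log axis, for each library, with filled circles for Nmd+/+, open squares for Nmd-/-, colours for the replicate number, black bars for group means and vertical bars for the 95% intervals of Cufflinks. Levels run from 198 FPKM (Npy, Nmd+/+ replicate 1) down to 1.35 FPKM (Grp, Nmd+/+ replicate 3), and the libraries numbered 2 are the lowest in Npy, Sst, Tac1 and Cck.

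The order of mean levels over the 6 libraries was Npy, Sst, Tac1, Cck, Penk, Pdyn, Calca, Nts, Gal and Grp. Npy exceeded Sst in 6 of 6 libraries, as did Tac1 over Cck, Cck over Penk, and Penk over Pdyn. The means of Tac1 (100.2 ± 29.2 FPKM, SD, n = 6) and Cck (32.0 ± 8.4 FPKM, SD, n = 6) differed by 3.13-fold, and those of Cck and Penk by 3.71-fold. Sst and Tac1 did not keep an order: Sst was higher in 3 of 6 libraries, and the ratio of their means was 1.02. The same held for Pdyn and Calca, with Pdyn higher in 3 of 6 and a ratio of means of 1.01. Nts exceeded Gal in 4 of 6 libraries. Calca exceeded Nts, and Gal exceeded Grp, in 5 of 6. Npy, Sst and Tac1 together made up between 81.9% and 88.1% of the summed FPKM of the 10 genes, and the 10 genes together made up between 0.0346% and 0.0791% of all FPKM of a library.

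The precision of these values differed widely. The interval widths corresponded to between 1495 and 5873 fragments for Npy, between 238 and 518 for Pdyn, between 43.4 and 119 for Gal and between 40.8 and 66.1 for Grp. These figures cover estimation error within a library only.

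Genotype was then compared. By their log2 differences 9 of the 10 genes were lower in Nmd-/- and 1, Grp, was higher, and none passed the test. The comparison used limma on log2(FPKM + 1), with p-values adjusted over all 14611 genes and a threshold of 0.05. Of the 10 genes 0 passed, as did 0% of all genes, and adjusted p was 0.9997 for each of the 10. At an unadjusted p under 0.05 in limma 1 of the 10 passed, against 0.445% of all genes. The median log2 difference of the 10 was -0.17, against 0.02 for all genes, of which 44% were lower. The 10 genes were picked by name with earlier results known, and 6 of them shared a low value in the same libraries, so the count of 9 is not made of independent observations.

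Pdyn had the largest log2 difference of the 10. Its Nmd+/+ mean was 5.32 ± 0.484 FPKM and its Nmd-/- mean 3.70 ± 0.852 FPKM (SD, n = 3 each), which is 0.695 times the former. On the log2 scale Pdyn differed by -0.44 (SE 0.17; the 95% interval ran from -0.84 to -0.04), at an unadjusted p of 0.0338 and an adjusted p of 0.9997 in limma. The difference was -0.35, -0.31 and -0.66 between the libraries numbered 1, 2 and 3, so Pdyn was lower in 3 of 3 pairs. The Cufflinks intervals of the genotypes overlapped in 0 of these 3 pairs. Groups that did not overlap and were lower in Nmd-/- occurred in 0.91% of all genes. By exact permutation (two-sided) p was 0.1, the lowest value that 3 against 3 libraries allow. This p and the direction of the 3 pairs both follow from the groups not overlapping, so neither is separate evidence.

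Grp lay in the other direction, with means of 1.46 ± 0.147 FPKM for Nmd+/+ and 1.80 ± 0.179 FPKM for Nmd-/- (SD, n = 3 each). On the log2 scale the difference was 0.19 (SE 0.13, 95% interval -0.12 to 0.49) with an adjusted p of 0.9997 in limma and an exact permutation p of 0.1. Grp was higher in 3 of 3 pairs, but the Cufflinks intervals overlapped in all 3. Groups without overlap and higher in Nmd-/- occurred in 1.76% of all genes. As for Pdyn, the direction of the 3 pairs and the permutation p follow from the groups not overlapping.

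The other 8 genes overlapped between genotypes. Nts averaged 3.35 ± 0.404 and 2.45 ± 0.823 FPKM (SD, n = 3 each), a log2 difference of -0.36 (SE 0.21), and was lower in 3 of 3 pairs. Tac1 averaged 113 ± 33.4 and 87.6 ± 23.5 FPKM, a difference of -0.35 (SE 0.28), lower in 3 of 3 pairs, by 0.08, 0.24 and 0.73 between libraries numbered 1, 2 and 3. Penk averaged 9.57 ± 2.97 and 7.68 ± 1.64 FPKM, a difference of -0.26 (SE 0.25). In Penk the pairs went both ways, with -0.15, 0.19 and -0.81. Sst, Calca, Npy, Gal and Cck had log2 differences between -0.18 (Sst) and -0.08 (Cck). For Sst the 95% interval ran from -1.28 to 0.92 and for Npy from -1.11 to 0.86, with genotype as the only term. These widths include the spread between replicate numbers. With the replicate number as a block in limma the intervals ran from -0.45 to 0.09 for Sst and from -0.35 to 0.10 for Npy. The Npy pairs differed by -0.08, -0.19 and -0.10 (log2), lower in all 3.

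With the replicate number as a block in limma the standard errors of Npy, Sst and Cck were 0.10, 0.12 and 0.10, against 0.42, 0.47 and 0.28 without it. Still 0 of the 10 genes passed, and 0% of all genes did. At an unadjusted p under 0.05 with the block 3 of the 10 passed, Pdyn, Nts and Tac1, against 4.87% of all genes. Pdyn had the smallest adjusted p of the 10 with the block, 0.913.

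**Figure D2:**
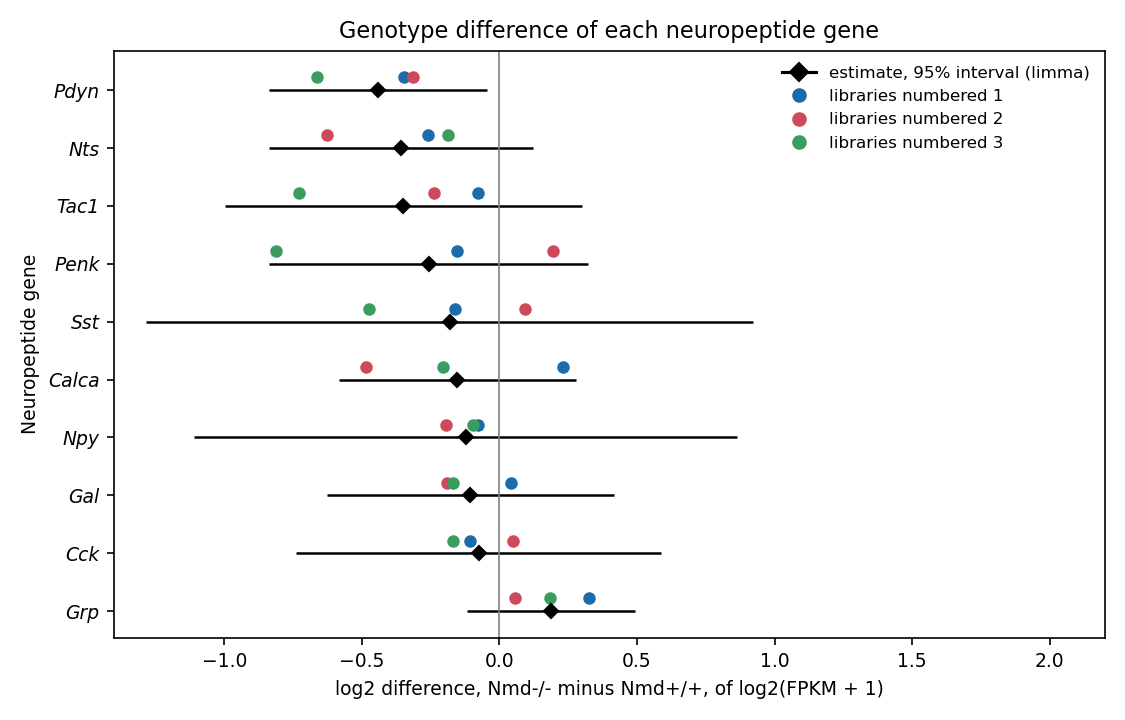
Log2 difference of log2(FPKM + 1), Nmd-/- minus Nmd+/+, for each of the 10 genes, with black diamonds and bars for the limma estimate and its 95% interval (no block) and coloured points for the difference between libraries of the same replicate number. Pdyn, at -0.44, is the only gene whose interval leaves out 0 before adjustment, and Grp, at 0.19, is the only one above 0.

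The replicate number was then tested. In limma, with genotype in the fit, 5 of the 10 genes differed between replicate numbers at an adjusted p under 0.05: Npy (0.000394), Sst (0.000754), Cck (0.00425), Tac1 (0.0178) and Gal (0.0270). Such differences were common, at 28.6% of all 14611 genes. By level, 6 of the 10 genes, these 5 and Nts, were lowest in the library numbered 2 of both genotypes, as were 21.7% of all genes. Sst in number 2 was 0.360 times the mean of the other 2 libraries in Nmd+/+ and 0.473 times in Nmd-/-. For Npy these ratios were 0.468 and 0.434, for Cck 0.556 and 0.636, for Tac1 0.590 and 0.659, and for Gal 0.653 and 0.559. Without both libraries numbered 2, numbers 1 and 3 differed in 2 of the 10, Sst (adjusted p = 0.0249, limma) and Npy (0.0376), as did 19.5% of all genes.

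The other 5 genes did not pass this test. For Pdyn number 2 was 0.957 and 1.11 times the mean of the other libraries of its genotype, for Calca 1.39 and 0.931 times, and for Grp 1.18 and 0.939 times. Penk and Nts were unlike in the 2 genotypes: 0.551 and 0.916 times for Penk, 0.805 and 0.516 times for Nts. Adjusted p in limma was 0.0740 for Nts, 0.156 for Penk, 0.161 for Pdyn, 0.344 for Calca and 0.813 for Grp. A p above the threshold does not show that these levels were equal.

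Most markers of spinal neurons moved with this pattern, and most of those of fibroblasts moved against it. The 18 markers of inhibitory spinal neurons, such as Gad1, Slc32a1 and Pax2, summed to 137 FPKM in the Nmd+/+ library numbered 2 and to 334 and 287 FPKM in numbers 1 and 3. In Nmd-/- number 2 had 158 FPKM, and numbers 1 and 3 had 322 and 225.5 FPKM. All 15 tested markers of this list were lowest in number 2 of both genotypes, against 21.7% of all genes. Of the 15, 13 passed the replicate-number test, against 28.6% of all genes. The 22 markers of excitatory neurons, such as Slc17a6, Lmx1b and Tlx3, summed to 130.4 and 111 FPKM in number 2 and to between 183 and 211 FPKM elsewhere, and 12 of 19 passed. Of these 19, 16 were lowest and 1, Lhx2, was highest in number 2 of both genotypes. In these bulk cultures, fewer cells of a type and less RNA per cell cannot be told apart. The part of these cell types in the replicate-number result was not tested.

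**Figure D3:**
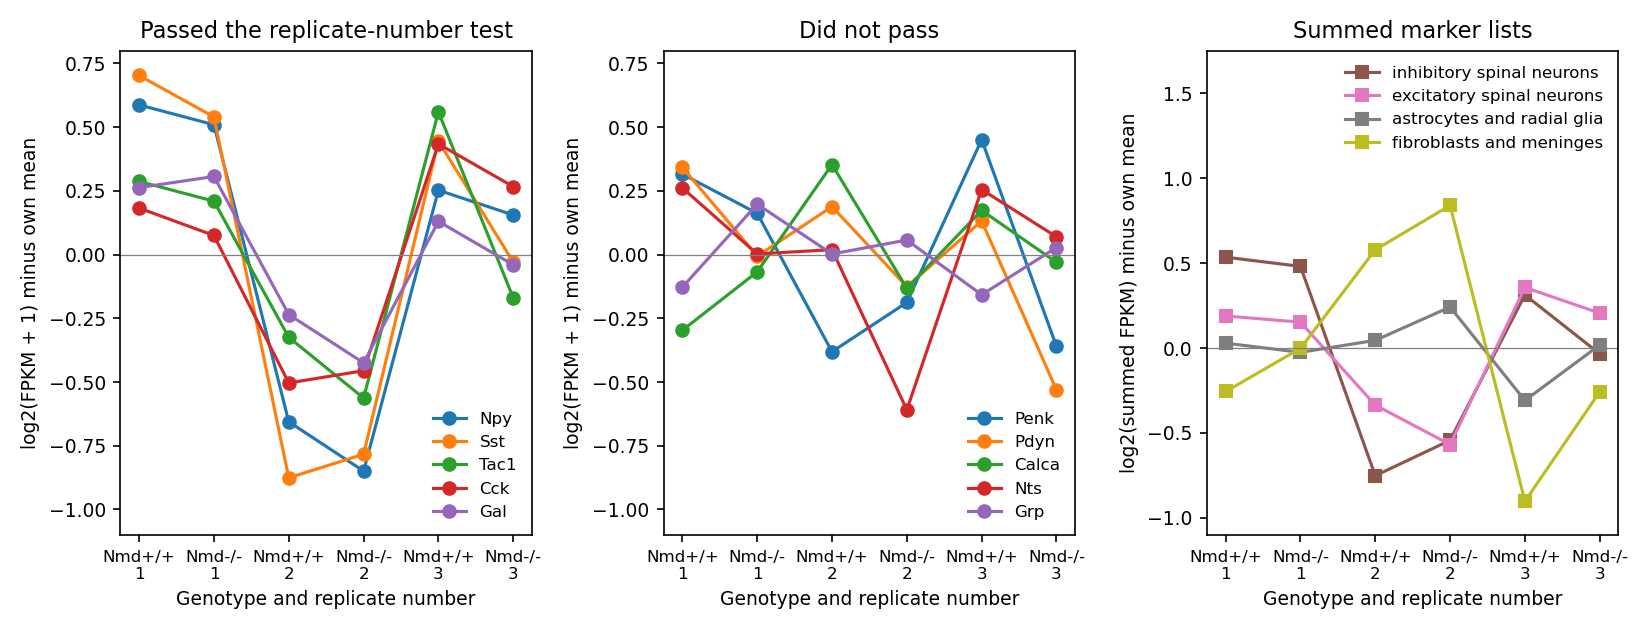
Left and centre, log2(FPKM + 1) minus the gene's own mean for the genes that did and did not pass the replicate-number test, and right, log2 of the summed FPKM of 4 marker lists minus its own mean, over the 6 libraries in order of replicate number, with lines only as guides to the eye. Npy, Sst, Tac1, Cck and Gal are low in both libraries numbered 2, as are the spinal neuron lists, where fibroblast markers are highest. The sum for astrocytes and radial glia is mostly Vim.

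When each library was rescaled to the same summed level of spinal neuron markers, a setting chosen after seeing the data, the 5 genes varied less and 3 others more. The summed markers were themselves low in number 2, at 268 (Nmd+/+) and 269 (Nmd-/-) FPKM, against between 415 and 522 FPKM elsewhere. Dividing by them narrows genes low in number 2 and widens genes level there, so this outcome was largely set in advance. The highest library divided by the lowest came to 3.03 before and 1.55 after rescaling for Sst, 2.73 and 1.41 for Npy, 2.196 and 1.39 for Tac1, 2.08 and 1.29 for Gal, and 1.96 and 1.39 for Cck. For Penk it was 1.91 and 1.77, and for Nts 2.38 and 1.92. By contrast it widened from 2.13 to 2.92 for Pdyn, from 1.74 to 3.39 for Calca and from 1.49 to 2.39 for Grp. The summed level of the 10 genes was between 0.868 and 1.02 times that of the neuron markers in every library. On this scale 4 of the 10 passed the replicate-number test in limma, Calca (adjusted p = 6.64e-06), Pdyn (5.59e-05), Grp (0.00171) and Sst (0.0453). In this setting 12633 of all 14611 genes, or 86.5%, passed. Between genotypes 0 of the 10 passed after rescaling; Pdyn differed by -0.36 and Grp by 0.24.

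Receptors for these and related peptides were mostly low. Of 32 in the files 12 were tested, 10 of them lower and 2 higher in Nmd-/- by their log2 differences, and 0 passed the genotype test. Sort1, which binds neurotensin and sorts proteins in the Golgi, lay between 22.5 and 27.6 FPKM, and Crcp, a component of CGRP receptors and of RNA polymerase III, between 13.3 and 18.3 FPKM. Tacr1, the substance P receptor, lay between 7.86 and 12.5 FPKM, and was with Sort1 the receptor gene that was higher in Nmd-/-, by 0.17 and 0.16 on the log2 scale. Oprl1, the nociceptin receptor, lay between 7.10 and 15.1 FPKM. Oprm1, the mu opioid receptor, averaged 3.02 ± 0.459 and 2.19 ± 0.665 FPKM (SD, n = 3 each), the smallest unadjusted p of the list at 0.112 in limma. The kappa receptor gene Oprk1 did not exceed 0.416 FPKM, the delta receptor gene Oprd1 0.234 FPKM, and Grpr, the receptor for gastrin-releasing peptide, 1.03 FPKM.

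Genes that make and store peptides ranged widely in level. Of 22 genes of peptide processing and dense-core vesicles 20 were tested, 15 lower and 5 higher in Nmd-/-, and 0 passed between genotypes. Cadps did not enter because Cufflinks gave a failed status in at least 1 library. Cpe, carboxypeptidase E, lay between 242 and 267 FPKM and was nearly level over the 6 libraries (replicate-number adjusted p = 0.971, limma). Pcsk2, a convertase, lay between 7.13 and 13.0 FPKM, while Pcsk1, the other neuroendocrine convertase, did not exceed 0.879 FPKM. The granins Scg2, Scg3, Chga and Chgb, cargo of dense-core vesicles, passed the replicate-number test together with Vgf (adjusted p = 0.000549), which ranged from 10.8 to 30.8 FPKM. In all 13 of the 20 passed it, against 28.6% of all genes. Of the 20, 10 were lowest and 6 were highest in number 2 of both genotypes, against 3165 and 3467 of all 14611 genes. Ctsl, a cathepsin, was among the highest ones, between 25.0 and 71.3 FPKM. Scg3 averaged 78.0 ± 14.8 and 65.4 ± 12.1 FPKM (SD, n = 3 each), the smallest unadjusted genotype p of this list at 0.246 in limma, followed by Bace2, an aspartyl protease, at 34.9 ± 3.40 and 41.9 ± 11.1 FPKM. Tmed10, a cargo receptor of the early secretory pathway and second to Cpe in mean level, averaged 94.1 ± 21.1 and 90.4 ± 12.1 FPKM (SD, n = 3 each).

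Of 11 peptide-degrading enzymes 9 were tested, with 8 higher and 1 lower in Nmd-/-, a median of 0.12, and 0 passed. Mme, neprilysin, which cleaves enkephalins and substance P, averaged 27.0 ± 7.08 and 32.4 ± 6.01 FPKM (SD, n = 3 each). Prep, prolyl endopeptidase, averaged 37.7 ± 5.86 and 38.8 ± 2.08 FPKM. Ece2, an endothelin-converting enzyme, averaged 4.54 ± 0.829 and 5.23 ± 0.477 FPKM (SD, n = 3 each). Other neuropeptide precursors were mostly near 0: of 50 in the files 10 were tested, 6 lower and 4 higher in Nmd-/-, and 0 passed. Nppc, C-type natriuretic peptide, averaged 18.8 ± 5.62 and 25.0 ± 4.29 FPKM, and Apln, apelin, 11.4 ± 4.45 and 14.3 ± 3.80 FPKM (SD, n = 3 each). Nms, neuromedin S, lay between 0.688 and 3.07 FPKM, with means of 1.70 ± 1.23 and 0.799 ± 0.0948 FPKM. Pnoc, the precursor of nociceptin, ranged from 6.21 to 14.0 FPKM and passed the replicate-number test (adjusted p = 0.00199, limma).

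**Figure D4:**
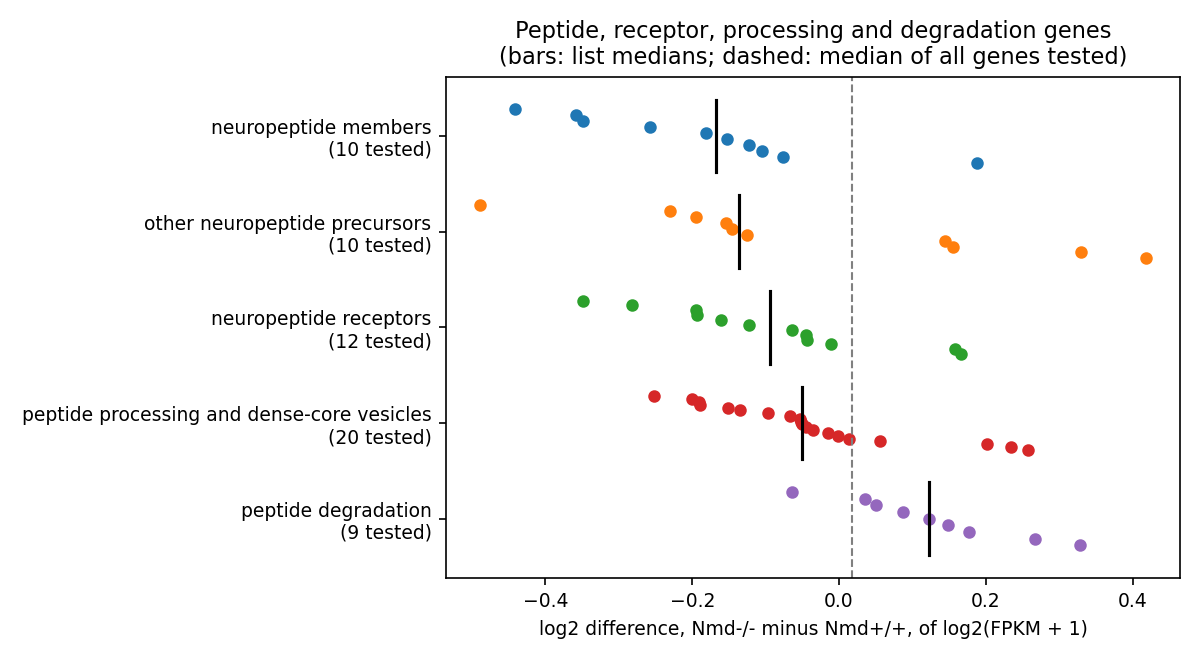
Log2 difference, Nmd-/- minus Nmd+/+, of each tested gene in 5 lists, with black bars for the list medians and a dashed line for the median of all genes tested. No gene shown passed the test, and the medians run from -0.17 for the 10 neuropeptide genes to 0.12 for the degrading enzymes.

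The profile of each gene over the 6 libraries was set against those of all other tested genes, by the root mean square difference of mean-centred log2(FPKM + 1), and the closest 2 were named. For Sst they were Tubb3, a neuronal tubulin (0.062), and Actl6b, a neuronal chromatin subunit (0.078), and for Npy Zic1, a dorsal neural transcription factor (0.064), and Thsd7a (0.098). For Tac1 they were Nrn1 (0.041) and Vsnl1 (0.044), for Cck Klhl14 (0.047) and the glutamate receptor gene Grm5 (0.048), and for Penk Syt2 (0.051) and Rwdd2a (0.065). The median distance to all genes was 0.65 for Sst and 0.43 for Tac1. Pdyn was closest to Asrgl1 (0.098) and to Ighmbp2 (0.099), whose levels in each library are given above. Nts was closest to Oprm1 (0.071) and Ndst3 (0.078), Gal to Sept6 (0.045) and Gm10419 (0.045), Calca to Ccdc82 (0.030) and Gm15246 (0.046), and Grp to Dcaf17 (0.046) and Msl1 (0.047). With 6 libraries many genes have near profiles, so these names describe the libraries only.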

How the data were processed

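RNA was measured in 6 libraries, 3 per genotype. The authors deposited gene-level FPKM with 95% intervals and a status, in the layout of Cufflinks (per the file headers). Tools listed by the submitters' processing notes were Cufflinks 2.2.1, SAMtools 1.3, cutadapt 1.8, Trim Galore 0.4.0 and FastQC 0.10.1, with build GRCm38. Strand setting, annotation release and aligner version: not given in the sources used here. Fragment equivalents were computed from the interval widths.

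Genes with a mean of at least 1 FPKM and an accepted status in each library were tested, 14611 in all. Of the genes reaching that mean, 28 had a failed status. Log2(FPKM + 1) was fitted with limma 3.58.1 (R 4.3.3, intensity trend), with no rescaling and two-sided tests. P-values were Benjamini-Hochberg adjusted over all tested genes. The difference from Nmd+/+ was tested with genotype as the only term, and the replicate number by an F test with genotype in the fit. Single genes also had an exact permutation test. Across genes, libraries sharing a number deviated together from the mean of their genotype (r = 0.82, 0.70 and 0.39 for numbers 1, 2 and 3). For libraries of unlike number r lay between -0.81 and 0.28, the latter for Nmd+/+ number 3 with Nmd-/- number 1. The pairing by number rests on the data, since no label gives one, and is weakest for number 3. The procedure was tested on simulated data. The simulated genotype data held no replicate-number effect, so they do not show how well the genotype test works on these libraries.

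The 10 genes and all lists were chosen with earlier results of these data known. All 10 genes are named, and from each list of peptide-related genes the 2 highest by mean, the 2 with the smallest genotype p, and some chosen after their values were seen. Ebf1 has more than 1 entry; the one with the lowest identifier was used. Alternatives were the replicate block, leaving out libraries, median-of-ratios scaling, rescaling to neuron markers, a pseudocount of 0.1, no filter, and a minimum mean of 5 FPKM.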

Additional observations from a re-analysis of the deposited data

How the results depend on the processing

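Between genotypes 0 of the 10 genes and 0 genes in all passed under each setting run (limma): the replicate block, a pseudocount of 0.1, no filter, a minimum mean of 5 FPKM (5 of the 10 tested), median-of-ratios scaling, each library left out, both libraries numbered 2 left out, and rescaling to neuron markers. At an unadjusted p under 0.05 between 0 and 3 of the 10 and between 7 and 711 of all genes passed. The adjusted p of the 10 lay between 0.913 (Pdyn, replicate block) and 1, and the block changed no call. Pdyn ranged from -0.55 to -0.29 and Grp from 0.14 to 0.29, and Tac1, Penk and Nts also kept their direction. Single libraries moved them by over 1.5 times: Tac1 to -0.60 without Nmd+/+ replicate 2, -0.16 without Nmd+/+ replicate 3, -0.54 without Nmd-/- replicate 1 and -0.15 without Nmd-/- replicate 2; Penk to -0.51 without Nmd+/+ replicate 2 and -0.096 without Nmd+/+ replicate 3 at the extremes; Nts to -0.14 without Nmd-/- replicate 2; Pdyn to -0.29 without Nmd-/- replicate 3. Calca went to -0.34 without Nmd+/+ replicate 1 and -0.015 without Nmd+/+ replicate 2. Signs turned for Sst (0.12 without Nmd+/+ replicate 1, 0.17 without Nmd-/- replicate 2), Npy (0.14 and 0.27 in the same settings), Gal (0.081 without Nmd-/- replicate 2) and Cck (0.12 without Nmd+/+ replicate 3, 0.13 without Nmd-/- replicate 2, 0.022 rescaled to neuron markers), and for Calca (0.013 without both libraries numbered 2). With 1 library left out, Sst ranged from -0.66 to 0.17, Npy from -0.48 to 0.27, Gal from -0.28 to 0.081 and Cck from -0.35 to 0.13. For the replicate number, with no filter 0 of the 10 and 0 of 27711 genes passed (limma; 5 and 6348 at an unadjusted p under 0.05), and the cause was not tested. Without both libraries numbered 2, 2 of the 10 and 2848 of all genes passed (19.5%), and rescaled to neuron markers 4 of the 10 and 12633 of all genes did (86.5%). The last 2 settings were chosen after seeing the data for this test. Depth limits Gal and Grp most, with as few as 43.4 and 40.8 fragment equivalents in a library.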

Other observations

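Markers of other cell types and states were read beside the 10 genes. Of 24 genes induced by activity, several of which act on peptide promoters, 19 were tested, 7 higher and 12 lower in Nmd-/-, and 0 passed. Of the 19, 12 passed the replicate-number test, against 28.6% of all genes. In number 2 of both genotypes 5 were lowest and 7 highest, against 3165 and 3467 of all 14611 genes. The summed level of the 24 activity genes lay between 249 and 302 FPKM. Of 20 genes of dividing cells 19 were higher in Nmd-/-, as were 8189 of all 14611 genes, and 0 passed (limma). Their summed level was 1337, 1536 and 1030 FPKM in Nmd+/+ replicates 1, 2 and 3, and between 1405 and 1540 FPKM in Nmd-/-. Nmd+/+ replicate 3 was thus the lowest library, which bears on the count of 19. By replicate number 0 of the 20 differed at an adjusted p under 0.05. Of 10 Schwann cell and neural crest markers 6 were tested, all lower in Nmd-/-, and 0 passed, while all 6 passed the replicate-number test. Of 10 neuroendocrine markers 4 were tested and 0 passed; Dbh did not exceed 0.0326 FPKM and Th did not exceed 0.348 FPKM. Of 20 astrocyte and radial glia markers 19 were tested, 13 lower and 6 higher, and 0 passed. Their summed level, between 3694 and 5409 FPKM, was highest in Nmd-/- replicate 2, but it was mostly Vim, with 4452 FPKM there. Fabp7, second to Vim in mean level, was lowest in that library, at 283 FPKM. In number 2 of both genotypes 4 of the 19 were lowest and 3 highest, against 3165 and 3467 of all 14611 genes. Of 20 fibroblast and meningeal markers 15 were tested, 13 higher and 2 lower, and 0 passed between genotypes. For the replicate number 14 passed, against 28.6% of all genes.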
